A study of Mus musculus with 6 samples.

Results

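The genes described here are 44 interferon-stimulated genes measured in splenic dendritic cells, which present antigen to T cells, and lie outside the Oas, Slfn, Ifi200, Gbp and immunity-related GTPase families. They were taken by symbol from the gene count tables, and all 44 were found among the 23420 genes listed and all passed the filter on low counts that left 14388 genes for testing. Total RNA of 3 TBK1-DKO libraries was set against that of 3 wild-type (WT) libraries, all of strain C57BL/6 and from mice given as 8 weeks old in the protocol and 10 weeks old in the sample characteristics. The labels do not spell out DKO, the alleles, any Cre line or how the dendritic cells were isolated, and do not say that different libraries are different mice. The p-values therefore measure the spread between these libraries, which may be technical.

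Type I interferons bind a receptor made of IFNAR1 and IFNAR2, whose kinases JAK1 and TYK2 activate the transcription factor ISGF3. This factor, of which IRF9 is a part, binds interferon-stimulated response elements, DNA stretches with repeated GAAA letters, and switches on genes whose products sense, bind or block viruses. TBK1 is a kinase that acts earlier, downstream of nucleic acid sensors, where it activates the factor IRF3 that starts interferon production.

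The promoters were searched for the letters of that element, which the choice of genes did not use. RefSeq (GRCm38.p6) windows of 300 bases, from 250 before to 50 after a start site, were held for 32 of the 44 genes, in 39 windows. Mx1, Mx2, Usp18, Ifi27l2a, Dhx58, Rtp4, Ly6e, Parp14, Parp9, Zbp1, Tor3a and Gm4951 have no entry. A tandem motif, GAAA followed by any 2 bases and GAAA again, searched on both strands with overlapping matches allowed, occurred in 16 of the 39 windows (41%), against 3.44% of all 32851 windows. A second motif, the gamma-activated site TTCNNNGAA, was in 6 of the 39 (15.4%) and in 8.30% of all windows. The stretches below carry the tandem motif in capitals (read as TTTC where it lies on the other strand), with 20 bases on either side. They were chosen to set 5 genes that rose beside 3 that were not called and a neighbouring pair of which the second fell.
Isg15, chr4:156200855-156200916, minus strand: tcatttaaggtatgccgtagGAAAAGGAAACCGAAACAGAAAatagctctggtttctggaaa
Ifit1, chr19:34640765-34640833, plus strand: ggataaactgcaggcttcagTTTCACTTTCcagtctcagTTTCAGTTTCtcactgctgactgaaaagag
Ifit3, chr19:34583353-34583436, plus strand: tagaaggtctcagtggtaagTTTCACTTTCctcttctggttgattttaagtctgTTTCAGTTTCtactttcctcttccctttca
Rsad2, chr12:26456543-26456592, minus strand: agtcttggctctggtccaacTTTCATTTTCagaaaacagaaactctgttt
Ddx60, chr8:61928014-61928097, plus strand: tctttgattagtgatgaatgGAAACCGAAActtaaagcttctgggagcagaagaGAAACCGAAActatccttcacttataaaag
Ddx58, chr4:40239794-40239843, minus strand: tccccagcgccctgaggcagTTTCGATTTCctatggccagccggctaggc
Bst2, chr8:71537567-71537622, minus strand: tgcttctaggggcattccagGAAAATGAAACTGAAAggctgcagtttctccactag
Ifitm3, chr7:141010696-141010762, minus strand: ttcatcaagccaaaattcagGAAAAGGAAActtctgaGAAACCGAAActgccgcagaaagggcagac
Trim30a, chr7:104465200-104465249, minus strand: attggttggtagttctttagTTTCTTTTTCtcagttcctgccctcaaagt
Trim30d, chr7:104507861-104507910, minus strand: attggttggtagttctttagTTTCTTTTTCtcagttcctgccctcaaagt

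Isg15 holds 3 overlapping matches in a run that starts 78 bases before its start site, and Ifit1, Ifit3, Ddx60, Bst2 and Ifitm3 hold 2 each. Trim21 and Lgals9, whose stretches are not printed and which were not called, also hold 2 each. The match was found for 5 of 12 genes that rose (41.7%) and for 9 of 18 that were not called (50%). Of the pair that fell, Trim30d had it and Xaf1 did not. These are counts of letters in a window, not of bound sites.

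Gene reads numbered 45018389 to 47349648 in the TBK1-DKO libraries and 31077585 to 36145508 in WT, so the TBK1-DKO libraries were 1.37 times as deep on average. Levels are given as counts per 1000000 reads (CPM) after scaling of the libraries, and, where genes are compared with each other, as CPM per kilobase of exon (RPKM). In TBK1-DKO 1, 2 and 3, Tbk1 had 83.9, 79.2 and 83.8 CPM, and in WT 1, 2 and 3 it had 90.7, 80.8 and 83.7 CPM. Its log2 fold change was -0.05 (SE 0.06, edgeR adjusted p = 0.629), so the level of the whole gene did not check the genotype label, and rose and fell below describe the labelled groups. TBK1-DKO 2 and WT 1 departed from the rest of their groups with exon length, as measured further on, and the counts are also given without them. Itgax, the CD11c gene that marks dendritic cells, was present in both groups, at 343 ± 10.2 CPM in TBK1-DKO and 394 ± 14.6 CPM in WT (SD, n = 3). It was lower in TBK1-DKO, with a log2 fold change of -0.20 (SE 0.06, edgeR adjusted p = 0.0298) and no overlap between the groups. Each bulk library holds RNA of all cells isolated, so a change in how many cells of a type are present and a change in RNA per cell cannot be told apart.

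The called changes were mostly rises, and each was under 2-fold. Of the 44 genes, 21 rose, 2 fell and 21 were not called, where a call is an adjusted p under 0.05 in the quasi-likelihood F test of edgeR, adjusted by Benjamini-Hochberg across the whole table. Over all 14388 genes the same rule called 13.7% up and 9.90% down. The median log2 fold change of the 44 was 0.23, that of all genes tested 0.00148, and 33 of the 44 had a value above 0. In 24 genes every TBK1-DKO library lay above every WT library and in 3 every one lay below, whereas 21.5% and 19.5% of all genes tested did so. Among the 23 called genes the median size was 0.50, and 9 changed by more than 1.5-fold.

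**Figure D1:**
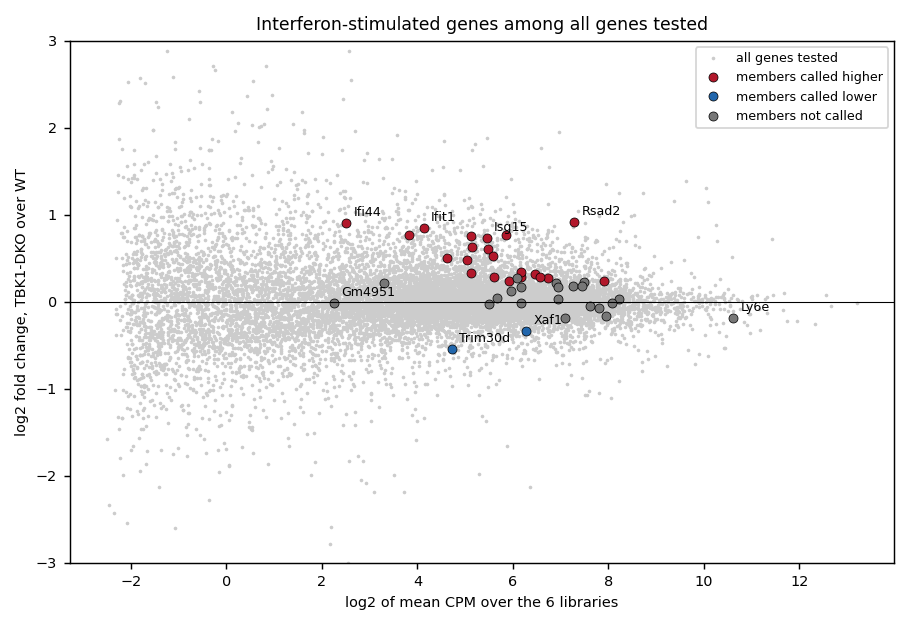
Log2 fold change of TBK1-DKO over WT (vertical axis, cut at 3 in either direction, which leaves out 21 genes) against log2 of the mean CPM (horizontal axis) for all 14388 genes tested in grey, with the 44 interferon-stimulated genes as larger points. The called genes lie between -0.54 (Trim30d) and 0.91 (Rsad2), and Ly6e, with the highest level, lies below 0 and was not called.

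The antiviral effectors Rsad2 and Cmpk2, neighbours on chromosome 12 with 12751 bases between them, rose together. Rsad2 (chr12:26442746-26456452, minus strand) encodes viperin, an enzyme that makes a nucleotide which stops viral polymerases. In TBK1-DKO 1, 2 and 3 it stood at 206, 196 and 208 CPM, and in WT 1, 2 and 3 at 117, 105 and 103 CPM. Values below keep this library order, and positions are on GRCm38 (mm10). The lowest TBK1-DKO library was thus well above the highest WT library, and the log2 fold change of 0.91 (SE 0.06, edgeR adjusted p = 7.98e-06) was the largest of the 44. Cmpk2 (chr12:26469204-26479837, plus strand), a mitochondrial nucleotide kinase gene, stood at 55.8, 50.9 and 53.8 CPM against 35.7, 36.1 and 33.8 CPM. Its log2 fold change was 0.61 (SE 0.06), again without overlap between the groups.

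In the family of IFIT proteins, which bind foreign RNA, all 3 genes among the 44 rose. They lie on chromosome 19, with 7111 bases between Ifit2 and Ifit3 and 52139 between Ifit3 and Ifit1. Ifit1 (chr19:34640871-34650009) had TBK1-DKO levels of 21.9, 23.9 and 21.9 CPM and WT levels of 12.1, 11.8 and 13.8 CPM, a log2 fold change of 0.84 (SE 0.08, edgeR adjusted p = 6.38e-05). Ifit3 (chr19:34583531-34588731) had 40.6, 45.4 and 41.9 CPM against 27.2, 28.9 and 26.6 CPM, a log2 fold change of 0.63 (SE 0.07). Of the 50-base words of its transcript, 51.2% also occur in another gene, its near copy Ifit3b, so its reads may be split between them. Ifit2 (chr19:34550694-34576419) moved least, from 33.9, 30.6 and 27.9 CPM in WT to 41.4, 37.1 and 37.9 CPM, a log2 fold change of 0.33 (SE 0.08). The Ifit2 call was lost without TBK1-DKO 1, WT 2 or WT 3 (edgeR adjusted p = 0.0623, 0.0683 and 0.0742).

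Of the ISG15 system, the modifier and its protease rose, and the ligases were not called with all 6 libraries. ISG15 is a small ubiquitin-like protein that is attached to other proteins during an interferon response. Isg15 (chr4:156199424-156200818, minus strand) had TBK1-DKO levels of 51.1, 60.1 and 52.6 CPM and WT levels of 32.0, 33.9 and 32.6 CPM. The WT libraries lay close together and all TBK1-DKO libraries far above them, with a log2 fold change of 0.73 (SE 0.07, edgeR adjusted p = 6.84e-05). Usp18, whose product removes ISG15 and also brakes signalling at the interferon receptor, stood at 38.0, 39.5 and 36.7 CPM against 28.9, 24.9 and 28.1 CPM (log2 fold change 0.48, SE 0.07). Herc6, the main ISG15 ligase of the mouse, had a log2 fold change of 0.12 (95% interval -0.05 to 0.30), and 23.8% of the 50-base words of its transcript occur in another gene. Herc6 was called up without both TBK1-DKO 2 and WT 1 (0.24, edgeR adjusted p = 8.85e-07) and with length and GC offsets (0.16, edgeR adjusted p = 0.00672). Both settings were added after seeing the data. The first leaves 2 libraries in each group and drops those that departed from their groups, so its p-value is not comparable with that from all 6. Trim25, a ubiquitin ligase that acts on the RNA sensor RIG-I, had -0.05 (95% interval -0.19 to 0.08).

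Among the 7 nucleic acid sensors and sensor-like helicases, Zbp1, Ddx60 and Dhx58 rose and 4 were not called. Zbp1 (chr2:173206612-173218923, minus strand), which encodes a sensor of Z-form nucleic acids that drives cell death, stood at 55.4, 59.6 and 55.5 CPM in TBK1-DKO. In WT it stood at 40.3, 39.2 and 39.0 CPM, so the groups lay apart by several times their spread (log2 fold change 0.53, SE 0.06, edgeR adjusted p = 1.24e-04). Ddx60, a helicase gene, stood at 30.4, 23.5 and 32.0 CPM against 21.5, 20.4 and 18.9 CPM, a log2 fold change of 0.50 (SE 0.11) in which TBK1-DKO 2 was the low library of its group. Dhx58, encoding the RIG-I relative LGP2, rose by 0.24 on the log2 scale (SE 0.06). That call was lost without TBK1-DKO 1, WT 2 or WT 3 (edgeR adjusted p = 0.0568, 0.0825 and 0.0518).

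The RNA sensors that signal through MAVS were not called. Ddx58, the RIG-I gene, had TBK1-DKO levels of 126, 116 and 129 CPM and WT levels of 118, 124 and 122 CPM, with overlapping groups and a log2 fold change of 0.03 (95% interval -0.10 to 0.16). Ifih1, the MDA5 gene, stood at 80.1, 70.5 and 77.2 CPM against 70.7, 66.6 and 65.3 CPM. Its log2 fold change was 0.17 (95% interval 0.03 to 0.31, edgeR adjusted p = 0.0883), with TBK1-DKO 2 just below WT 1. Eif2ak2, encoding the translation-blocking kinase PKR, had 0.27 (SE 0.09, edgeR adjusted p = 0.0533), and Znfx1, an RNA-binding helicase gene, 0.18 (SE 0.07, edgeR adjusted p = 0.0966).

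**Figure D2:**
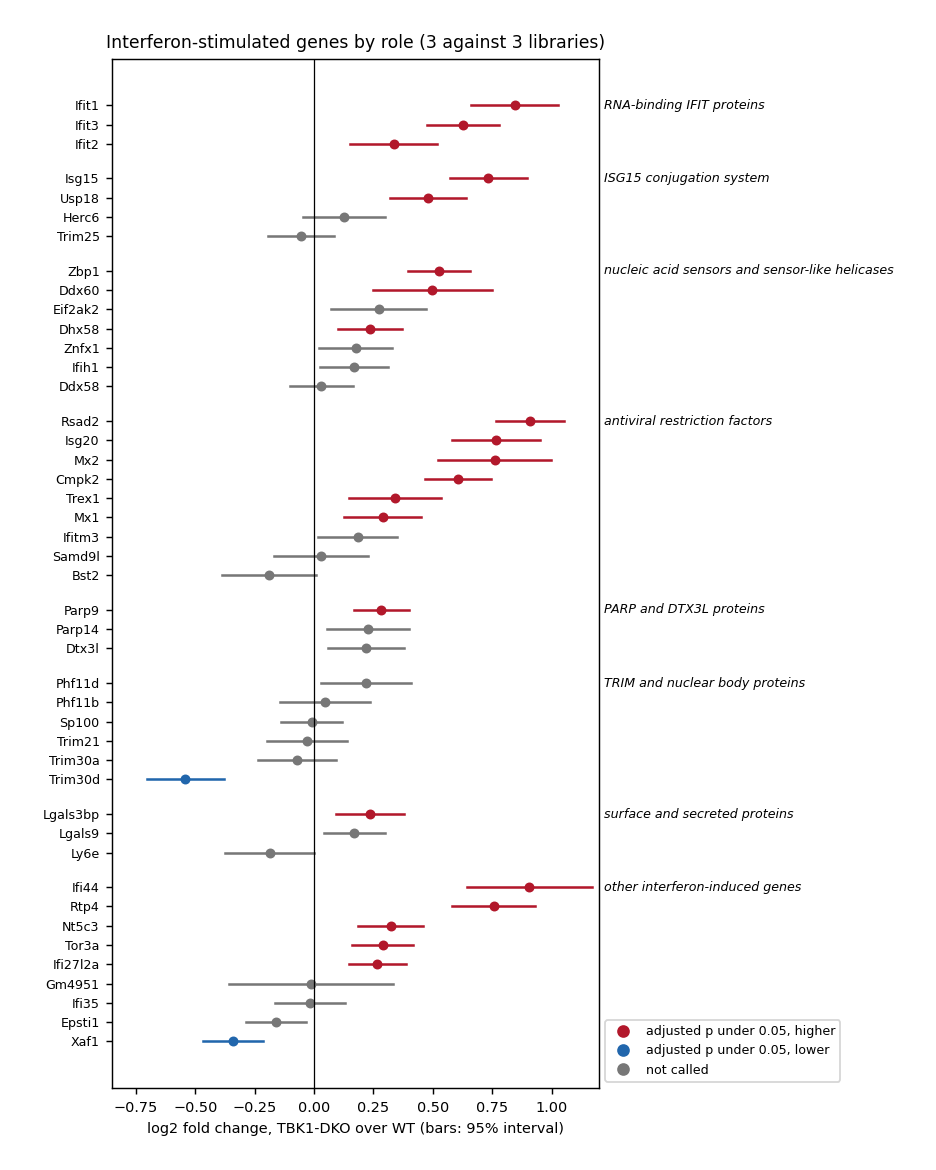
Log2 fold change of TBK1-DKO over WT (horizontal axis) with its 95% interval for each of the 44 genes, grouped by role and coloured by the call. All 3 IFIT genes and 6 of 9 restriction factors are called higher, while the points of the TRIM and nuclear body group lie around 0 apart from Trim30d at -0.54.

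Genes grouped as antiviral restriction factors rose in 6 of 9 cases. Besides Rsad2 and Cmpk2 these were Isg20, Mx2, Trex1 and Mx1. Isg20, an RNA exonuclease gene, had TBK1-DKO levels of 71.3, 81.3 and 65.5 CPM and WT levels of 42.9, 44.9 and 40.4 CPM (log2 fold change 0.77, SE 0.08, edgeR adjusted p = 1.12e-04). Mx2, a dynamin-like GTPase gene that GENCODE lists as a polymorphic pseudogene, had 17.5, 18.1 and 17.5 CPM against 12.5, 9.52 and 9.40 CPM, and its log2 fold change was 0.76 (SE 0.11). Its neighbour Mx1 had 54.8, 52.9 and 53.5 CPM against 49.0, 41.1 and 42.0 CPM, a smaller log2 fold change of 0.29 (SE 0.07). The Mx1 allele of C57BL/6 mice is known to lack part of the coding sequence, so its transcript does not make a working protein. In both Mx genes WT 1 was the highest WT library, and the Mx1 call was lost without TBK1-DKO 1, WT 2 or WT 3 (edgeR adjusted p = 0.0593, 0.107 and 0.0903).

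Trex1, whose product degrades stray DNA, rose by 0.34 on the log2 scale (SE 0.09), a call lost without WT 1 (edgeR adjusted p = 0.0503). In GENCODE M21 all of its exon bases (100%) lie under exons of Atrip on the same strand. The annotation behind the deposited counts is not stated, so how reads there were divided between Trex1 and Atrip is not known. Ifitm3, Samd9l and Bst2 were not called. Ifitm3, which blocks virus entry at endosomes, had TBK1-DKO levels of 156, 180 and 155 CPM and WT levels of 135, 152 and 144 CPM, with groups that did not overlap but lay close (log2 fold change 0.18, SE 0.07, edgeR adjusted p = 0.107). The Ifitm3 value was 0.09 without TBK1-DKO 2 and 0.05 without both TBK1-DKO 2 and WT 1. Bst2, the tetherin gene, which is also a marker of plasmacytoid dendritic cells, stood at 123, 143 and 118 CPM against 130, 157 and 151 CPM, with overlap (log2 fold change -0.19, 95% interval -0.39 to 0.01). Samd9l had a log2 fold change of 0.03 (SE 0.09).

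**Figure D3:**
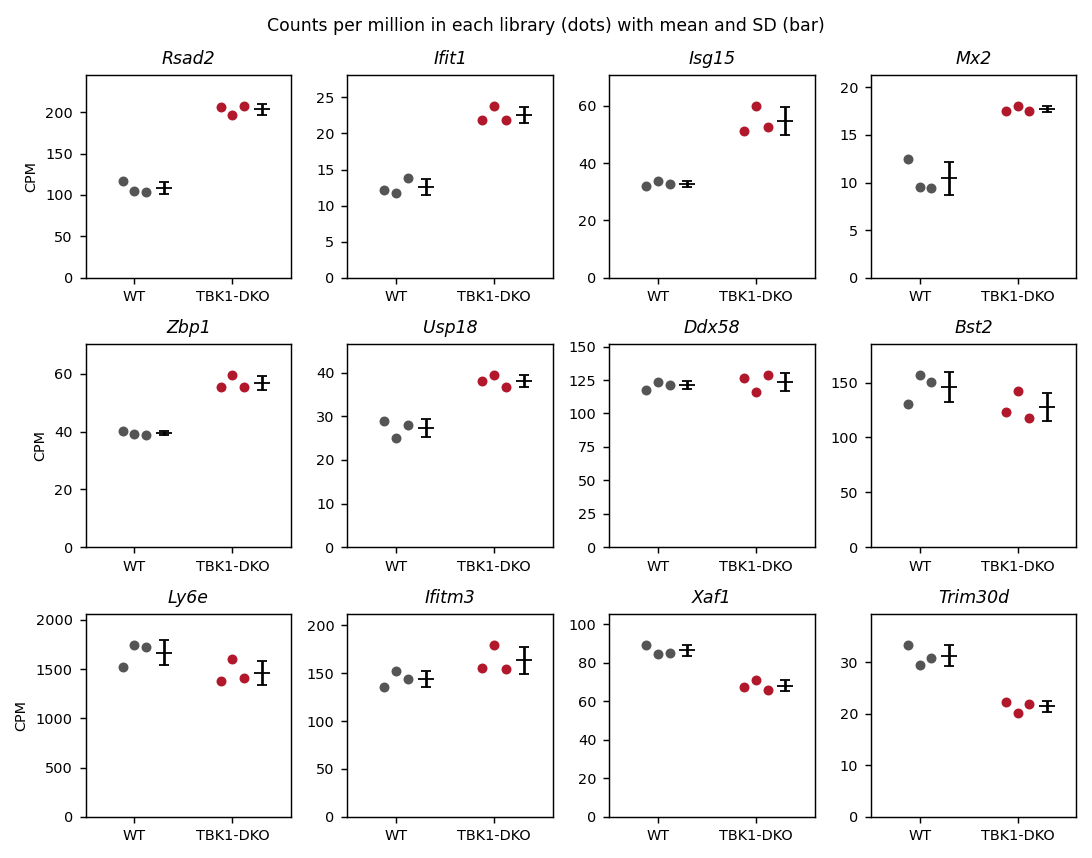
CPM (vertical axes, each from 0) of 12 genes in the 3 WT and the 3 TBK1-DKO libraries, as dots in replicate order, with the mean and SD of each group beside them. Rsad2, Ifit1, Isg15, Mx2, Zbp1 and Usp18 separate upward, Xaf1 and Trim30d separate downward, and the groups of Ddx58, Bst2 and Ly6e overlap.

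Both called falls lay outside these groups of effectors and sensors. Trim30d (chr7:104470014-104507849, minus strand), a tripartite-motif gene, had TBK1-DKO levels of 22.3, 20.2 and 21.9 CPM and WT levels of 33.5, 29.4 and 30.9 CPM. Every TBK1-DKO library was thus below every WT library, and the log2 fold change was -0.54 (SE 0.07, edgeR adjusted p = 4.54e-04). Trim30a, its neighbour 4820 bases away, whose product restrains Toll-like receptor signalling, had 227, 203 and 221 CPM against 250, 219 and 215 CPM, with overlap and a log2 fold change of -0.07 (95% interval -0.23 to 0.09). The promoter windows of the pair share a run of 118 identical bases, which includes the match printed above, and 8.29% of the 50-base words of the Trim30d transcript occur in another gene. Whether the fold changes of the pair differ from each other was not tested. Xaf1 (chr11:72301629-72313733, plus strand), which encodes a partner of the apoptosis inhibitor XIAP, stood at 67.6, 71.2 and 65.8 CPM against 89.5, 84.7 and 85.1 CPM. Its log2 fold change of -0.34 (SE 0.06, edgeR adjusted p = 0.00159) again came with groups that did not overlap.

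The other TRIM and nuclear body genes were not called. Sp100, a nuclear body component, had -0.01 on the log2 scale (SE 0.06), Trim21, a cytosolic antibody receptor, -0.03 (SE 0.08), Phf11b 0.05 (SE 0.09) and Phf11d 0.22 (SE 0.08, edgeR adjusted p = 0.0919). The PHF11 genes are near copies, and 47% of the 50-base words of the Phf11b transcript and 13.9% of those of Phf11d occur in other genes. In the PARP group Parp9 rose by 0.28 (SE 0.05), while Dtx3l, whose product forms a ubiquitin ligase with PARP9, had 0.22 (SE 0.07, edgeR adjusted p = 0.0532) and Parp14, an ADP-ribosyltransferase gene, 0.23 (SE 0.08, edgeR adjusted p = 0.0604). Parp9 and Dtx3l overlap by 682 bases on opposite strands.

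Of the surface and secreted proteins, Lgals3bp, which encodes a secreted galectin-binding glycoprotein, rose (log2 fold change 0.23, SE 0.06). The call was lost without TBK1-DKO 1 or any of the WT libraries (edgeR adjusted p = 0.0634 to 0.0819). Lgals9, a galectin gene, had 0.17 (SE 0.06, edgeR adjusted p = 0.059). Ly6e, a membrane-anchored surface protein gene, had the highest level per length of the 44, 440 ± 33.9 RPKM in WT (SD, n = 3), followed by Ifitm3 at 212 ± 12.4 RPKM. The levels of Ifitm3 and of Ifi27l2a, next at 208 ± 8.18 RPKM, did not differ beyond their spread. Ly6e had TBK1-DKO levels of 1375, 1602 and 1410 CPM and WT levels of 1518, 1749 and 1729 CPM, with overlap (log2 fold change -0.19, SE 0.08, edgeR adjusted p = 0.142). It alone made up 30.3% of the CPM of all 44 in WT. The summed level of the 44 was 5751 ± 74.0 CPM in TBK1-DKO and 5500 ± 65.9 CPM in WT, a ratio of 1.05. Without Ly6e the ratio was 1.12.

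Among the remaining genes, 5 of 9 rose and Xaf1 fell. Ifi44 was the least abundant of the 44 per length, at 0.65 ± 0.11 RPKM in WT, and had 115 to 147 reads per WT library. It had TBK1-DKO levels of 7.41, 7.40 and 7.40 CPM and WT levels of 4.68, 3.78 and 3.42 CPM, a log2 fold change of 0.91 (SE 0.12, edgeR adjusted p = 3.65e-04). Rtp4, a receptor chaperone gene, stood at 42.1, 47.0 and 42.1 CPM against 26.9, 23.5 and 27.3 CPM (log2 fold change 0.76, SE 0.08), and 13.6% of the 50-base words of its transcript occur in another gene. The smaller log2 rises were 0.32 for Nt5c3, a pyrimidine nucleotidase (SE 0.06), 0.29 for Tor3a, a torsin ATPase (SE 0.06), and 0.27 for Ifi27l2a, a small mitochondrial protein (SE 0.05). Epsti1 (log2 fold change -0.16, edgeR adjusted p = 0.0715), Ifi35 (-0.02) and Gm4951 (-0.01) were not called.

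**Figure D4:**
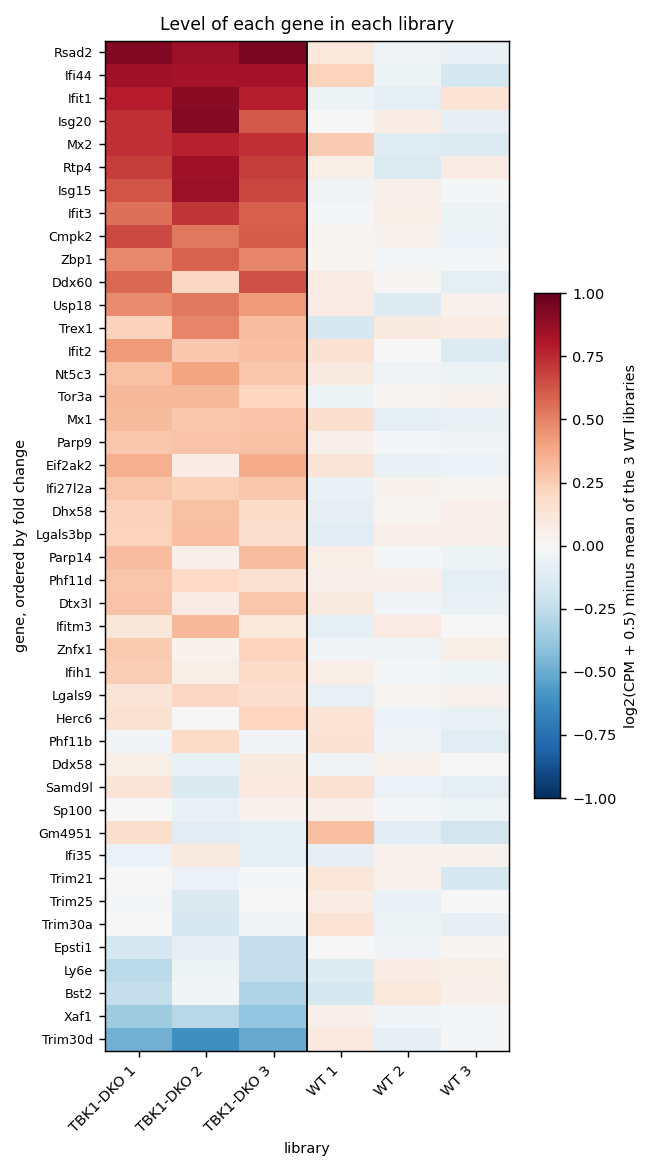
Level of each of the 44 genes (rows, ordered by fold change) in each library (columns) as log2(CPM + 0.5) minus the mean of the 3 WT libraries. The upper rows are high in all 3 TBK1-DKO libraries, while Ddx60, Eif2ak2, Parp14 and Dtx3l are paler in TBK1-DKO 2 and Isg20, Isg15 and Trex1 are darker there.

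The spread within the TBK1-DKO group followed exon length. Measured against the other TBK1-DKO libraries, TBK1-DKO 2 was higher for the shorter of the 44 genes (median 0.118 on the log2 scale for exon lengths up to 3784 bases) and lower for the longer (median -0.118). The Spearman correlation of this deviation with exon length was -0.788 over the 44 genes, which share the library. TBK1-DKO 1 and 3 had 0.699 and 0.737, measured against pairs that include TBK1-DKO 2, and the WT libraries -0.343 to 0.437. The extremes for TBK1-DKO 2 were Ddx60 at -0.403 and Isg20 at 0.249. How far length enters each fold change was not tested gene by gene. Values without this library, and with each library's trends with transcript length and GC removed, are as follows.

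Without TBK1-DKO 2, 26 of the 44 were up and 5 down, when 15.7% of all genes tested were up and 14.4% down, with Ly6e (-0.28 on the log2 scale), Bst2 (-0.30) and Epsti1 (-0.22) joining Trim30d and Xaf1. Without both TBK1-DKO 2 and WT 1, a choice made after earlier results were known, 30 were up and 6 down, and the shares over all genes tested were 24.2% and 23.5%. That choice leaves 2 libraries in each group and drops those that departed from their groups. Its p-values and calls therefore rest on libraries picked for being alike and are not comparable with those from all 6. With length and GC trends taken out of all 6 libraries, also chosen afterwards, 30 were up and 5 down, against 17.6% and 18.9% of all genes tested. Under each of these alternatives the 21 rises and 2 falls of the full comparison were called again. Eif2ak2 (0.42 without both libraries, 0.28 with offsets), Parp14 (0.33 and 0.25), Dtx3l (0.32 and 0.23) and Ifih1 (0.24 and 0.19) were among the further genes up in both. Bst2 (-0.36 and -0.23) and Ly6e (-0.33 and -0.25) were among those down in both. Without both libraries, Samd9l was also called up (0.18, edgeR adjusted p = 2.86e-07) and Ifi35 down (-0.13, edgeR adjusted p = 0.00323). Among the called genes, 3 values shrank there by more than 1.5-fold and were called again, to 0.17 for Trex1, 0.14 for Lgals3bp and 0.16 for Dhx58.

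**Figure D5:**
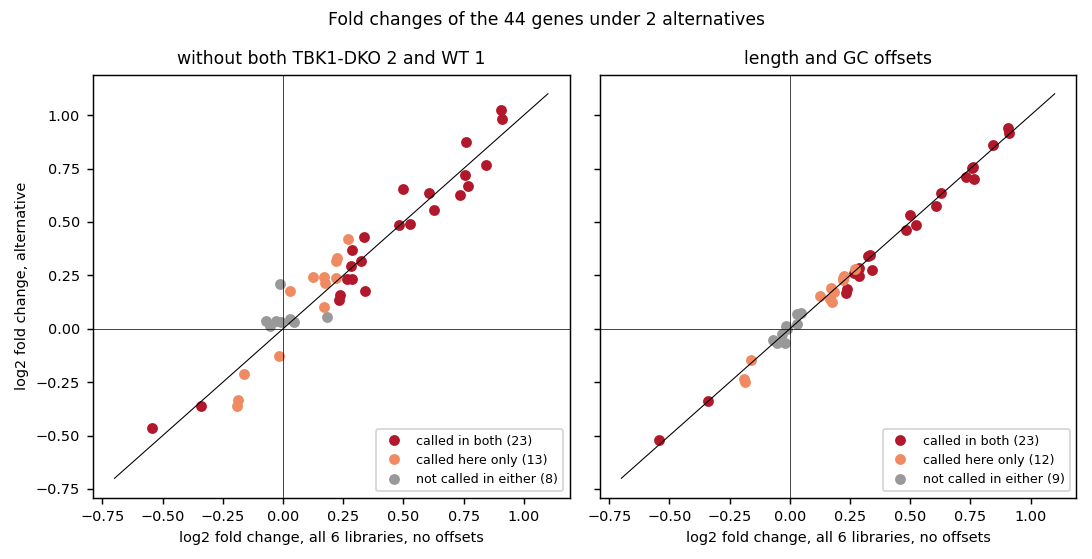
Log2 fold change of each of the 44 genes without both TBK1-DKO 2 and WT 1 (left) and with length and GC offsets (right) against the value from all 6 libraries, coloured by the calls, with the line of equal values. The 23 called genes were called in both alternatives, and 13 and 12 further genes were called only in the alternative.

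The interferons and their signalling pathway lie upstream of the 44 genes, and differences between these lists and the 44 were not tested. Ifnb1, the interferon beta gene, had 1 read over all libraries, and of 16 type I interferon genes in the files 7 had 0 reads in every library, where each 0 allows up to 3 reads per library, so none passed the filter for testing. Of the receptor chains, kinases and ISGF3 factors, 2 of 7 rose (28.6%, against 13.7% of all genes tested) and 1 fell. The log2 rise was 0.23 for the receptor chain gene Ifnar1 (SE 0.06) and 0.18 for Irf9 (SE 0.05), while Jak1 fell by 0.20 (SE 0.06). The calls were lost without TBK1-DKO 1 or 3 or WT 2 or 3 for Ifnar1 (edgeR adjusted p = 0.0561 to 0.106) and for Irf9 (0.0617 to 0.182, also lost with upper-quartile factors, no low-count filter and thinned counts), and without any library but TBK1-DKO 2 for Jak1 (0.0663 to 0.102).

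Irf7, the regulator that amplifies interferon production, had TBK1-DKO levels of 169, 193 and 169 CPM and WT levels of 113, 121 and 123 CPM. Its log2 fold change of 0.57 (SE 0.07, edgeR adjusted p = 2.32e-04) was the only rise among 7 other STAT and IRF factors, of which Irf8 fell by 0.32 (SE 0.06). The shares of that list, 14.3% up and 14.3% down, are near the 13.7% and 9.90% of all genes tested. Of 9 brakes on interferon signalling 3 rose, a share of 33.3% against 13.7% of all genes tested. Of these, Isg15 and Usp18 are also among the 44, so the share is not separate from theirs. Socs1, the remaining one, rose by 0.71 (SE 0.18), a call lost without WT 2 (edgeR adjusted p = 0.0615). Of 11 sensing adaptors and kinases 2 rose, a share of 18.2% that is near the 13.7% of all genes tested. These were Mb21d1, the cGAS gene, by 0.27 (SE 0.08) and Ticam1, an adaptor of Toll-like receptor 3, by 0.19 (SE 0.06). Both were lost without TBK1-DKO 1 or 3 or WT 2 or 3 (edgeR adjusted p = 0.0718 to 0.18 for Mb21d1 and 0.0781 to 0.183 for Ticam1), and under DESeq2 (adjusted p = 0.061 and 0.0541), upper-quartile factors and no low-count filter. With length and GC offsets the Ticam1 value was 0.11 and its call was lost too (edgeR adjusted p = 0.0868).

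Other interferon-induced families are described by counts alone. In the Oas family, whose products make a messenger that activates RNase L, 7 of 9 tested genes rose and the median log2 fold change was 0.69. Of 8 Slfn genes 5 rose and 1 fell (median 0.33), and of 8 immunity-related GTPases 4 rose (median 0.27). Of 11 Gbp genes 1 rose and 2 fell (median 0.03), and of 10 Ifi200 genes 1 rose and 5 fell (median -0.27). The shares up were 77.8% for Oas, 62.5% for Slfn, 50% for the GTPases, 9.09% for Gbp and 10% for Ifi200, against 13.7% of all genes tested. The shares down were 12.5% for Slfn, 18.2% for Gbp and 50% for Ifi200, against 9.90%. The 44 genes, with 47.7% up and a median of 0.23, lay within the range of these families. The differences between families were not tested.

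Markers of other cells moved with the labels too. The counts called below stand beside 13.7% up and 9.90% down over all genes tested. Summed levels were higher in the libraries labelled TBK1-DKO for neutrophil markers (6596 to 7532 against 2892 to 3182 CPM, 14 of 15 up), erythroid markers (3072 to 3209 against 1818 to 2045 CPM, 8 of 8 up) and plasma cell markers (2272 to 2431 against 1518 to 1695 CPM, 7 of 9 up and 1 down). Proliferation genes stood at 2824 to 3149 against 1774 to 2031 CPM, with 14 of 15 up. Lower sums were found for macrophage markers (5476 to 5868 against 7953 to 8565 CPM, 13 of 15 down), monocyte markers (2615 to 2726 against 3271 to 3324 CPM, 4 of 11 down and 3 up) and NK cell markers (235 to 256 against 322 to 361 CPM, 8 of 9 down). The monocyte list was mixed: Csf1r (mean 1122 against 1623 CPM), Nr4a1, Treml4 and Cx3cr1 fell, while Ly6c2, F13a1 and Ms4a4c rose. B cell markers (3060 to 3177 against 3635 to 3787 CPM, 5 of 10 down) and T cell markers (312 to 336 against 383 to 403 CPM, 7 of 9 down) were lower as well.

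Within the dendritic cells, markers of plasmacytoid cells, which are known for high interferon-induced gene levels, were at 1393 to 1432 against 1768 to 1797 CPM, with 12 of 15 down and 1 up. Type 1 conventional dendritic cell markers were at 2018 to 2258 against 2456 to 2651 CPM (8 of 10 down), and type 2 markers at 1711 to 1739 against 1751 to 1768 CPM (3 of 10 up, 2 down). The summed levels of general dendritic cell markers overlapped, at 12240 to 13940 against 12560 to 13960 CPM, with 1 of 8 up and 1, Itgax, down. The shares of that list, 12.5% up and 12.5% down, are near the 13.7% and 9.90% of all genes tested. Of the 145 marker genes, 2 had 0 reads in at least 1 library, Hba-a1 and Klra8. The part of these other cells in the changes of the 44 genes was not tested.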

How the data were processed

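Whole-number read counts per gene symbol were deposited for each of the 6 libraries. The build was mm10 and the tools listed are HTSeq, TopHat, TopHat2 and DESeq2, per the submitters' processing notes. The strand setting, the annotation and the tools' versions are not stated there. HTSeq summary rows, 8.20% to 10.7% of records, stayed out of library sizes and tests. Reads of overlapping or antisense genes may not be separable.

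Groups and replicate numbers came from the titles. Genes were kept by filterByExpr (minimum count 10), scaled by TMM factors (0.996 to 1.012) and compared without covariates by the quasi-likelihood F test of edgeR 4.0.16 in R 4.3.3, with Benjamini-Hochberg adjustment over all 14388 genes tested. SE was derived from the F statistic, and intervals are 95%. CPM is per 1000000 reads. Positions and exon lengths came from GENCODE M21 (GRCm38), where all 44 symbols matched, and promoter sequences from RefSeq. The fit was also run on simulated data, whose outcome is not reported here and lends no support to the calls.

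The members and lists were chosen with earlier results of these data known. Values in every library are given for the 12 called members with the largest change, every member that fell, 14 preset members and the 2 with the highest level per length; from pathway lists, up to 4 called genes with the smallest p plus Tbk1, Irf7, Irf9 and Ifnb1. A further gene of that rule is not reported here. Alternatives were DESeq2 1.42.0, limma-voom (limma 3.58.1), RLE and upper-quartile factors, other filters, a replicate block, each library left out and a threshold of 0.01. Added after seeing the data were both unlike libraries left out, offsets for transcript length and GC (known for 99.2% of genes), and TBK1-DKO counts thinned to the WT depth. The transcript was the longest of each gene, protein-coding where there was one, so its length can differ from the exon length used elsewhere.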

Additional observations from a re-analysis of the deposited data

How the results depend on the processing

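The 21 rises and 2 falls among the 44 genes kept their sign under all 17 alternatives, and 16 of the rises and both falls were also called under each of them. DESeq2 gave 23 up and 2 down and limma-voom 21 and 2. With each library left out in turn, 17 to 26 of the 44 were up, 2 to 5 down (5 without TBK1-DKO 2), and 2308 to 4352 of all genes were called. At an adjusted p under 0.01, 16 of the 44 were up, 2 down, and 1996 of all genes were called. Without both TBK1-DKO 2 and WT 1 the count over all genes was 6897 (3500 up, 3397 down) and 6 of the 44 were down. With length and GC offsets it was 5252 (2535 up, 2717 down), and 5 of the 44 were down. The cause of these shifts was not tested.

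The replicate number as a block gave 28 up and 3 down, and 4086 of all genes were called. Same-numbered libraries correlated in their deviations from the group means with 0.268, 0.222 and -0.109 for replicates 1, 2 and 3, so the numbers were not taken to pair the libraries. TBK1-DKO 3 correlated best with WT 1 (0.201), not with its own number.

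Signs reversed in genes that were not called with all 6 libraries. Without both libraries the values were 0.0347 for Trim30a, 0.0319 for Sp100, 0.0358 for Trim21, 0.0127 for Trim25, 0.211 for Gm4951 and 0.0160 for Tbk1. Gm4951 had 0.0148 with offsets and 0.000979 under limma-voom. With single libraries left out, values ran from -0.0970 to 0.0160 for Ifi35, -0.127 to 0.000138 for Trim30a, -0.0329 to 0.107 for Samd9l, -0.0464 to 0.0156 for Sp100, -0.0533 to 0.121 for Phf11b, -0.123 to 0.0308 for Trim21, -0.128 to 0.165 for Gm4951 and -0.0996 to 0.000161 for Tbk1. The type I interferon genes had too few reads to be tested.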

Other observations

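Within the 44 genes, rises were more frequent at low levels. Split at their median level of 71.6 CPM over all 6 libraries, 15 of the 22 less abundant genes rose and 1 fell, with a median log2 fold change of 0.41. Of the 22 more abundant genes 6 rose and 1 fell, with a median of 0.17. Over all levels 13.7% of all genes tested rose, but the share of all genes on either side of this level was not counted. Whether the split is particular to the 44 genes is therefore not known, and the difference between these sets was not tested.

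The median replicate spread of the 44 genes was somewhat below that of all genes tested, a comparison not matched for level. Their median coefficient of variation was 5.37% in TBK1-DKO and 5.95% in WT, against 7.12% and 6.41% over all genes tested. Library TBK1-DKO 2 held the highest of the 6 values for 16 of the 44 genes, and WT 3 held the lowest for 19.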
